A study of Mus musculus with 6 samples.

Results

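The genes of cholesterol and fatty acid synthesis were examined in lung mesenchymal stromal cells (LMSCs) of mice that develop mammary tumors. They were chosen by name, as 34 known enzymes and regulators of these pathways. All 34 were found among the 34745 genes of the deposited expression table, and all 34 passed the filter on low values that left 10279 genes for testing. The mice carried the MMTV-PyMT transgene, in which the promoter of mouse mammary tumor virus drives the polyoma middle T antigen in mammary epithelium, on the FVB background. LMSCs were grown from lungs in serum-containing medium and sequenced at passage 3, at 3 stages with 2 libraries each. A-LMSCs came from mice of 6 to 7 weeks (adenoma stage, labelled E-LMSCs), PM-LMSCs from mice of 9 to 10 weeks (pre-metastatic stage, labelled L-LMSCs) and M-LMSCs from mice of 13 to 14 weeks (metastatic stage). These ages are those of the labels, and the study's methods give somewhat older mice for the adenoma and pre-metastatic stages. Every stage carries the transgene, and no library of wild-type mice was analysed here, so stage and age of the mice cannot be told apart. The labels number the libraries of a stage 1 and 2 and say nothing more of their origin, so the p-values below measure only the spread between these libraries.

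Cells make cholesterol from acetyl-CoA through mevalonate and squalene, and make fatty acids from the same acetyl-CoA through acetyl-CoA carboxylase and fatty acid synthase, after which elongases and desaturases shape the chains. Most of these enzymes are transcribed under the SREBP factors, which are made as membrane proteins of the endoplasmic reticulum. SCAP carries SREBPs to the Golgi for cleavage when sterols are low, and the INSIG proteins hold SCAP back when sterols are high. Stromal cells take up cholesterol from serum lipoproteins in culture and also make their own.

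Promoter windows of the genes were searched for known motifs. RefSeq windows on GRCm38, from 250 bases before to 50 bases after an annotated start, were found for 27 of the 34 genes, in 36 windows. Each window was searched on both strands for TCACNCCAC, 1 written form of the sterol regulatory element bound by SREBPs, for CCAAT, the box of the factor NF-Y, and for GGGCGG, the box of Sp1. CCAAT was present in 23 of 36 windows of the set (63.9%) against 37.4% of 32851 windows of all genes. GGGCGG was present in 27 of 36 (75.0%) against 35.7%. The letters TCACNCCAC were present in 1 of 36 windows against 1.24% of all, and that window was the one of Hmgcs1. The windows of all genes belong to 27025 genes and were not limited to those that passed the filter on low values. Every gene of the set passed that filter. Motif shares among the tested genes alone were not computed, so whether the set differs from them was not tested. The 250 bases before the start are given for Hmgcs1, whose level was highest in M-LMSCs, and for Insig1 and Cyp51, whose levels were lowest in PM-LMSCs. They are written 5′ to 3′ in the direction of the gene, with CCAAT (or ATTGG, its reverse complement) and the TCACNCCAC match in capitals. Those of Hmgcs1 lie at chr13:119690101-119690350 on the plus strand, those of Insig1 at chr5:28071162-28071411 on the plus strand and those of Cyp51 at chr5:4104698-4104947 on the minus strand.
Hmgcs1: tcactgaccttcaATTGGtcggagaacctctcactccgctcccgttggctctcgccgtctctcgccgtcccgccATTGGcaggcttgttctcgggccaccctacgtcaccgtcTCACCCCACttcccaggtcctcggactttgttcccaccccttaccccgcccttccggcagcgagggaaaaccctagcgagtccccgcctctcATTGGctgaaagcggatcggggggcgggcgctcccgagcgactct
Insig1: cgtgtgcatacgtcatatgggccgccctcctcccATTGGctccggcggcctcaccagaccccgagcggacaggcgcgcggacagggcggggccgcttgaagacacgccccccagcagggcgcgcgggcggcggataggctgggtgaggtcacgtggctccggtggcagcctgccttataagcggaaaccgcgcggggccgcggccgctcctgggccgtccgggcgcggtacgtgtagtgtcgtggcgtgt
Cyp51: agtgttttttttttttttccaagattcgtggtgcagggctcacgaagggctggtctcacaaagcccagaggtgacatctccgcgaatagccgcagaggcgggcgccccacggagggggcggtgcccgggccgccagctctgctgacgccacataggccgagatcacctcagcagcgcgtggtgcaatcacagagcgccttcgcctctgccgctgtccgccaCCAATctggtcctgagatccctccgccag
The TCACCCCAC match of Hmgcs1 starts 137 bases before the start, 39 bases from the nearest CCAAT, and 3 CCAAT boxes lie before the start. Insig1 and Cyp51 each have 1 CCAAT box before the start. These matches are descriptions of the letters and were not tested for binding.

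Most of the genes had a lower level at the pre-metastatic stage than at the adenoma stage, and a higher one again in M-LMSCs, by amounts that did not pass the test. Values are FPKM (fragments normalized to the length of the gene and the depth of the library), and fold changes and their standard errors are on the scale of log2(FPKM + 1) from limma. The mean log2 level of 29 of 34 genes was lower in PM-LMSCs than in A-LMSCs, where 47.4% of all tested genes were lower, and their median difference was -0.22 against 0.01 for all genes. From PM-LMSCs to M-LMSCs, 29 of 34 were higher, with a median of 0.18 against 0.00, while 50.6% of all genes were lower. Between libraries of the same replicate number, PM-LMSCs were lower than A-LMSCs for 29 of 34 genes in number 1 and 27 in number 2, and for 24 in both (26.8% of all genes). M-LMSCs were higher than PM-LMSCs for 23 of 34 in number 1 and 30 in number 2, and for 23 in both (32.3%). Without replicate 2 of M-LMSCs, 15 of 34 were higher in M-LMSCs than the mean of both PM-LMSC libraries, and the median was -0.01. Between M-LMSCs and A-LMSCs, 19 of 34 were lower, with a median of -0.05 against 0.03. Without a replicate block, limma called none of these differences at an adjusted p of 0.05 for any of the 34 genes. The same held for the mean of both later stages against A-LMSCs. At an unadjusted p under 0.05, limma gave 4 of the genes in PM-LMSCs against A-LMSCs (6.53% of all genes tested), 9 in M-LMSCs against PM-LMSCs (8.94%), 4 in M-LMSCs against A-LMSCs (14.6%) and 2 in both later stages against A-LMSCs (11.2%). With the replicate number as a block in the fit, these counts were 10 (13.8%), 9 (16%), 7 (24.3%) and 11 (20.8%), in the same order. This fit called Hmgcs1 alone of the set, in M-LMSCs against A-LMSCs (adjusted p = 0.0497 in limma). Few genes of any kind were called at an adjusted p of 0.05 in the fit without the block, at 0.0389% in PM-LMSCs against A-LMSCs, 0.0292% in M-LMSCs against PM-LMSCs, 0.0681% in M-LMSCs against A-LMSCs and 0.126% in both later stages against A-LMSCs. In bulk libraries, fewer cells that express a gene and less RNA per cell cannot be told apart.

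**Figure D1:**
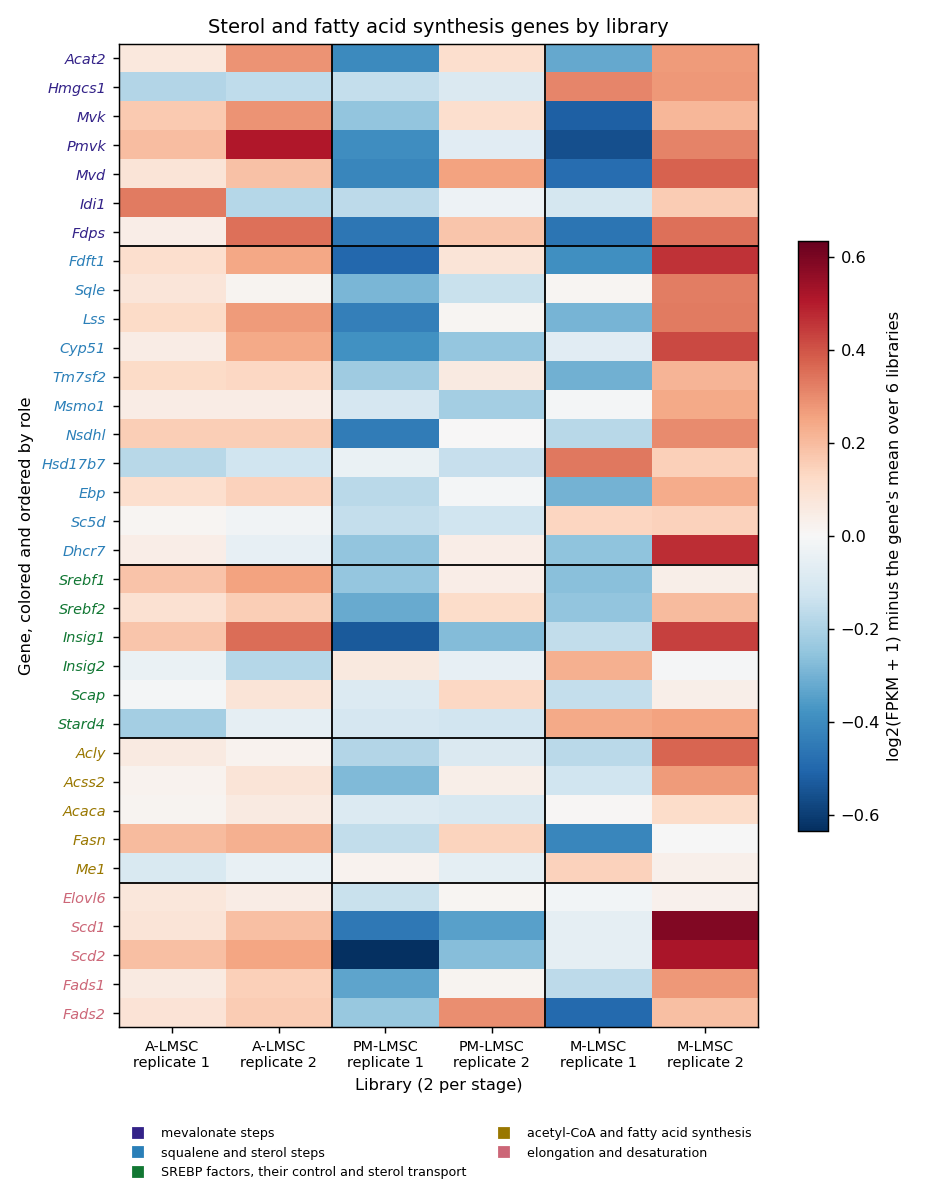
Level of each of the 34 genes in each of the 6 libraries, as log2(FPKM + 1) minus the mean of the gene over the 6 libraries (red above, blue below), with the genes on the vertical axis colored by role and the libraries on the horizontal axis. Replicate 1 of PM-LMSCs is below the mean of the gene for 32 of 34 genes and replicate 2 of M-LMSCs for 2 of 34.

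The libraries of PM-LMSCs and A-LMSCs did not overlap for 20 genes that were lower in PM-LMSCs, against 19.7% of all genes tested, and for 1 gene that was higher (Hmgcs1), against 19.6%. The 20 were Mvk, Pmvk, Fdft1, Sqle, Lss, Cyp51, Tm7sf2, Msmo1, Nsdhl, Ebp, Sc5d, Srebf1, Insig1, Acly, Acaca, Fasn, Elovl6, Scd1, Scd2 and Fads1. In M-LMSCs against PM-LMSCs, 12 genes were higher with no overlap (17.8% of all genes) and 0 were lower (16.7%). In M-LMSCs against A-LMSCs, 6 genes were higher with no overlap (27.1%) and 3 were lower (24.4%), so neither share exceeded that of all genes. Both PM-LMSC libraries were the lowest of the 6 for 8 genes (Sqle, Cyp51, Msmo1, Sc5d, Insig1, Acaca, Scd1 and Scd2), against 6.05% of all genes. Both M-LMSC libraries were the highest of the 6 for 5 genes (Hmgcs1, Hsd17b7, Sc5d, Stard4 and Me1). This was 14.7% of the set, close to the 11.8% of all genes. The GC content of these 5 was 42.9% to 45.1%, against a median of 49.3% for the set. Idi1, Elovl6 and Msmo1, at 41.9% to 44.7%, did not show the pattern, and the part of GC content in it was not tested. These last 2 patterns were chosen after the values were seen.

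The mevalonate steps comprised 7 enzymes from acetyl-CoA to farnesyl diphosphate. Hmgcs1, the cytosolic synthase that forms HMG-CoA, stood at 26.0 and 26.4 FPKM in A-LMSCs, 26.7 and 27.8 in PM-LMSCs and 37.1 and 36.2 in M-LMSCs. The M-LMSC libraries stood apart from the 4 others, and replicates of a stage differed little. The difference of M-LMSCs from A-LMSCs was 0.47 on the log2 scale (SE 0.099, adjusted p = 0.118 in limma), and that from PM-LMSCs was 0.41 (SE 0.099, adjusted p = 0.316). With the replicate number as a block, the adjusted p of M-LMSCs against A-LMSCs was 0.0497 in limma, and Hmgcs1 was the only one of the 34 genes called in any comparison. The adjusted p of this difference ranged from 0.0497 to 0.702 over 12 alternatives, and it was 0.103 with the block and a correction for GC content and length together. With the block, 3.92% of all genes were called in M-LMSCs against A-LMSCs, 0.292% in PM-LMSCs against A-LMSCs, 0.418% in M-LMSCs against PM-LMSCs and 2.05% in both later stages against A-LMSCs. Hmgcs1 lies at chr13:119690379-119708260 on the plus strand (GRCm38, GENCODE M21).

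The other 6 mevalonate enzymes had lower means in PM-LMSCs than at the adenoma stage and differed widely between replicates. Pmvk, phosphomevalonate kinase, stood at 8.11 and 10.3 FPKM in A-LMSCs, 5.05 and 6.55 in PM-LMSCs and 4.40 and 8.89 in M-LMSCs. Both PM-LMSC libraries were below both A-LMSC libraries, while 1 M-LMSC library was the lowest of the 6 and the other lay between the A-LMSC libraries. Its difference of PM-LMSCs from A-LMSCs was -0.59 (SE 0.290, adjusted p = 0.821 in limma). Mvd, which decarboxylates mevalonate diphosphate, stood at 29.1 and 31.5 FPKM in A-LMSCs, 20.4 and 33.0 in PM-LMSCs and 19.4 and 36.0 in M-LMSCs. Fdps, farnesyl diphosphate synthase, stood at 30.1 and 37.5 FPKM in A-LMSCs, 20.9 and 33.1 in PM-LMSCs and 20.9 and 37.5 in M-LMSCs. For Mvd and Fdps the gap between replicates of a later stage was wider than any gap between stage means. Acat2, which joins acetyl-CoA units, ranged from 10.2 to 17.1 FPKM over the 6 libraries, and mevalonate kinase (Mvk) from 10.6 to 19.4. Idi1, the isomerase of isopentenyl diphosphate, was low, at 3.27 to 5.10 FPKM.

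Among the 11 genes from squalene to cholesterol, 10 had a lower mean in PM-LMSCs than in A-LMSCs, 9 of them with no overlap (19.7% of all genes tested). All 11 had a higher mean in M-LMSCs than in PM-LMSCs, and this held for 8 of 11 between the libraries of replicate number 1. Leaving out 1 library turned this direction for Fdft1, Lss, Tm7sf2, Ebp and Dhcr7. Cyp51, the lanosterol demethylase (chr5:4081145-4104746, minus strand), stood at 29.9 and 34.3 FPKM in A-LMSCs, 22.0 and 24.3 in PM-LMSCs and 27.5 and 39.0 in M-LMSCs. Both PM-LMSC libraries were the lowest of the 6. Its difference of PM-LMSCs from A-LMSCs was -0.46 (SE 0.179, unadjusted p = 0.0399, adjusted p = 0.723 in limma), and that of M-LMSCs from PM-LMSCs was 0.49 (SE 0.179, adjusted p = 0.510). The latter was 0.24 without replicate 2 of M-LMSCs and 0.73 without replicate 1. Sqle, squalene epoxidase, stood at 14.0 and 13.4 FPKM in A-LMSCs, 10.6 and 11.9 in PM-LMSCs and 13.3 and 16.8 in M-LMSCs. Its PM-LMSC libraries were also the lowest of the 6, with a difference from A-LMSCs of -0.26 (SE 0.139, adjusted p = 0.840 in limma). Msmo1, a sterol methyl oxidase, stood at 14.8 and 14.8 FPKM in A-LMSCs, 13.2 and 12.2 in PM-LMSCs and 14.2 and 17.1 in M-LMSCs.

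Sc5d, which introduces a double bond of the sterol ring, gave the tightest replicates of this group. Its levels were 22.6 and 22.0 FPKM in A-LMSCs, 20.0 and 20.4 in PM-LMSCs and 24.6 and 24.8 in M-LMSCs. The PM-LMSC libraries lay below the A-LMSC pair and the M-LMSC libraries above it. With the correction for GC content and length, the difference of M-LMSCs from A-LMSCs fell from 0.14 to 0.01. That of PM-LMSCs from A-LMSCs went from -0.13 to -0.23. The difference of M-LMSCs from PM-LMSCs was 0.28 (SE 0.098, unadjusted p = 0.0273, adjusted p = 0.485 in limma). Hsd17b7, a ketosteroid reductase of the same branch, stood at 8.45 and 8.80 FPKM in A-LMSCs, 9.38 and 8.66 in PM-LMSCs and 12.5 and 10.9 in M-LMSCs. Like Hmgcs1 it was highest in M-LMSCs, and its mean was not lower in PM-LMSCs than in A-LMSCs. With the correction for GC content and length, the difference of PM-LMSCs from A-LMSCs turned from 0.06 to -0.01 for Hsd17b7. For Hmgcs1 it turned from 0.05 to -0.03. The difference of M-LMSCs from A-LMSCs for Hsd17b7 was 0.39 (SE 0.119, adjusted p = 0.224 in limma). With the correction it was 0.27 (adjusted p = 0.231 in limma). For Hmgcs1 the difference of M-LMSCs from A-LMSCs fell from 0.47 to 0.34 with the correction (adjusted p = 0.254 in limma). Fdft1, squalene synthase, stood at 43.6 and 48.2 FPKM in A-LMSCs, 28.3 and 42.8 in PM-LMSCs and 30.7 and 56.0 in M-LMSCs, so that replicate 2 exceeded replicate 1 at every stage. Nsdhl ranged from 18.4 to 31.4 FPKM, Ebp from 10.6 to 15.8, Lss from 2.74 to 5.35, Dhcr7 from 3.48 to 6.38 and Tm7sf2 from 1.33 to 2.34. These 5 are the sterol dehydrogenase NSDHL, the sterol isomerase EBP, lanosterol synthase and 2 sterol reductases, in this order.

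**Figure D2:**
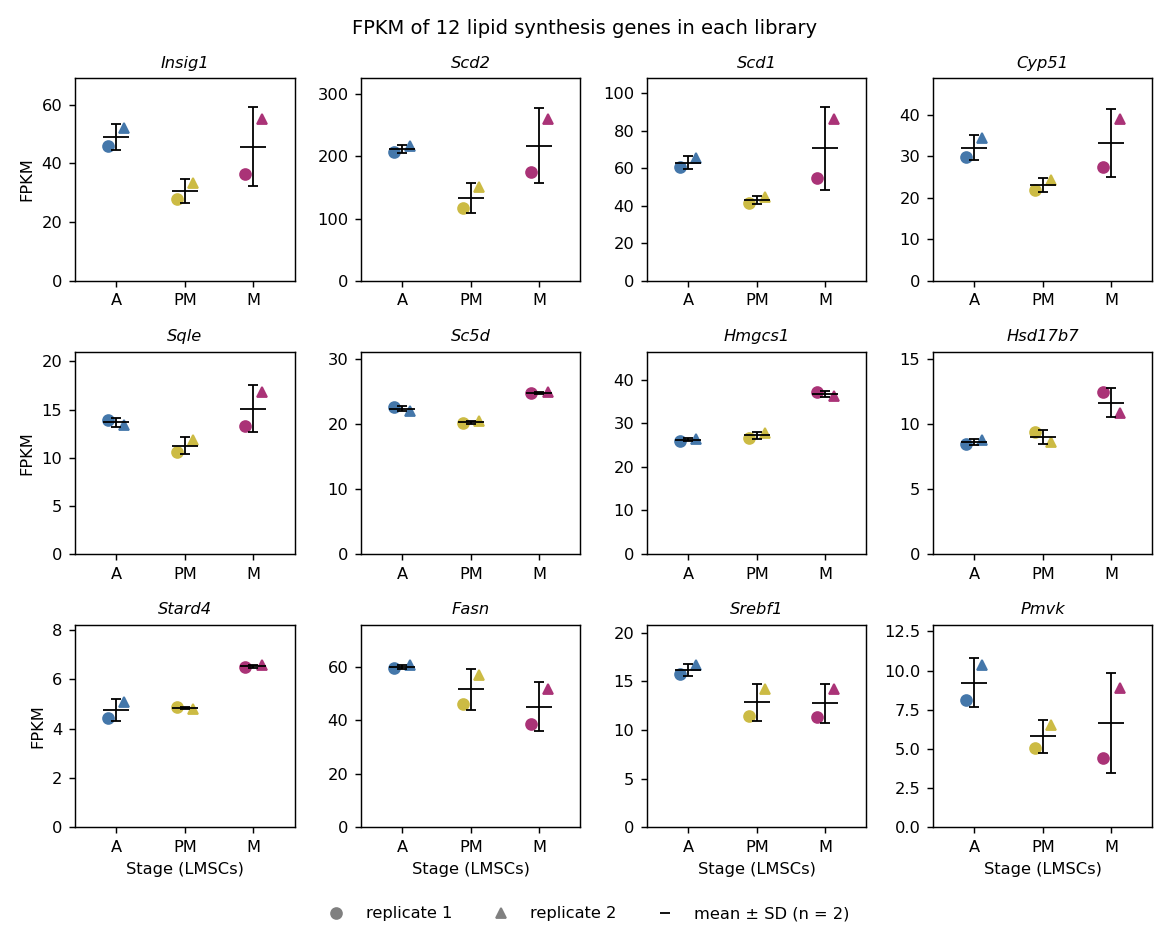
FPKM of 12 of the genes (vertical axes from 0, a scale for each gene) at the A, PM and M stages of LMSCs, with circles for replicate 1, triangles for replicate 2 and bars for the mean ± SD of 2 libraries. Insig1, Scd1, Scd2, Cyp51, Sqle and Sc5d are lowest in both PM-LMSC libraries, whereas Hmgcs1, Hsd17b7 and Stard4 are highest in both M-LMSC libraries.

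Of the regulators, Insig1 gave the lowest p of the 34 genes in PM-LMSCs against A-LMSCs. Insig1, itself a target of SREBPs (chr5:28071363-28078662, plus strand), stood at 46.0 and 52.2 FPKM in A-LMSCs, 27.7 and 33.4 in PM-LMSCs and 36.3 and 55.2 in M-LMSCs. The PM-LMSC libraries were the lowest of the 6, at a mean of 30.5 ± 3.99 FPKM (SD, n = 2) against 49.1 ± 4.41 (SD, n = 2) in A-LMSCs, a ratio of 0.622. The difference was -0.67 (SE 0.208, 95% interval -1.17 to -0.17, unadjusted p = 0.0159, adjusted p = 0.564 in limma). With the replicate block the adjusted p was 0.0939, and over 12 alternatives it ranged from 0.0939 to 1.0, with the same sign in all 12. Its paralog Insig2 stood at 4.03 and 3.56 FPKM in A-LMSCs, 4.40 and 3.99 in PM-LMSCs and 5.05 and 4.15 in M-LMSCs. The PM-LMSC libraries of Insig2 overlapped those of A-LMSCs.

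The SREBP genes themselves differed less than Insig1 in PM-LMSCs against A-LMSCs, at -0.23 for Srebf2 and -0.32 for Srebf1, a contrast that was not tested. Srebf2, which encodes the factor known mainly for cholesterol genes, stood at 51.7 and 53.9 FPKM in A-LMSCs, 38.4 and 52.2 in PM-LMSCs and 40.3 and 55.5 in M-LMSCs. Srebf1, which encodes the factor known mainly for fatty acid genes, stood at 15.8 and 16.6 FPKM in A-LMSCs, 11.5 and 14.2 in PM-LMSCs and 11.3 and 14.2 in M-LMSCs. All 4 later libraries of Srebf1 were below both A-LMSC libraries, with a difference of both later stages from A-LMSCs of -0.33 (SE 0.133, unadjusted p = 0.0460, adjusted p = 0.438 in limma). Scap was level, at 12.4 to 15.3 FPKM, with a difference of PM-LMSCs from A-LMSCs of -0.01 (95% interval -0.32 to 0.30). Stard4, a sterol carrier of the cytosol, stood at 4.44 and 5.07 FPKM in A-LMSCs, 4.87 and 4.80 in PM-LMSCs and 6.47 and 6.55 in M-LMSCs. Both M-LMSC libraries were the highest of the 6, with a difference from A-LMSCs of 0.39 (SE 0.116, unadjusted p = 0.0138, adjusted p = 0.223 in limma). With the correction for GC content and length this difference was 0.25 (adjusted p = 0.407 in limma).

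Of the 5 enzymes that supply and build fatty acids, 4 had a lower mean level in PM-LMSCs than at the adenoma stage, and 4 a higher one in M-LMSCs than in PM-LMSCs. Fasn, fatty acid synthase, stood at 59.6 and 60.5 FPKM in A-LMSCs, 46.2 and 57.0 in PM-LMSCs and 38.5 and 51.6 in M-LMSCs. All 4 later libraries were below both A-LMSC libraries, and the difference of M-LMSCs from A-LMSCs was -0.42 (SE 0.170, unadjusted p = 0.0446, adjusted p = 0.329 in limma). It was -0.21 without replicate 1 of M-LMSCs and -0.63 without replicate 2. Acaca, acetyl-CoA carboxylase, stood at 4.03 and 4.17 FPKM in A-LMSCs, 3.68 and 3.63 in PM-LMSCs and 4.0 and 4.39 in M-LMSCs, and its PM-LMSC libraries were the lowest of the 6. Acly, which makes cytosolic acetyl-CoA from citrate, stood at 41.3 and 40.2 FPKM in A-LMSCs, 34.8 and 37.2 in PM-LMSCs and 35.1 and 51.4 in M-LMSCs. Me1, the malic enzyme that supplies NADPH, stood at 18.3 and 19.0 FPKM in A-LMSCs, 20.0 and 18.8 in PM-LMSCs and 21.9 and 20.2 in M-LMSCs. Acss2, which makes acetyl-CoA from acetate, was the lowest of the 34, at 0.687 to 1.47 FPKM.

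Elongation and desaturation held the most abundant transcripts of the set. Averaged over the 6 libraries, Fads2, a desaturase of polyunsaturated chains, stood at 197 FPKM, the stearoyl-CoA desaturase Scd2 at 187, Fads1, the partner of Fads2, at 115 and Scd1 at 58.9. The 5 genes of this group summed to 594 and 626 FPKM in A-LMSCs, 413 and 549 in PM-LMSCs and 470 and 708 in M-LMSCs. Scd2 stood at 207 and 216 FPKM in A-LMSCs, 116 and 150.2 in PM-LMSCs and 174 and 260.5 in M-LMSCs. Its PM-LMSC libraries were the lowest of the 6, with a ratio of means to A-LMSCs of 0.630. The difference of PM-LMSCs from A-LMSCs was -0.67 (SE 0.213, unadjusted p = 0.0173, adjusted p = 0.571 in limma), and that of M-LMSCs from PM-LMSCs was 0.68 (SE 0.213, adjusted p = 0.428). Scd1 lies beside Scd2 on chromosome 19 (chr19:44394455-44407879, minus strand, and chr19:44293674-44306864, plus strand, GRCm38). It gave 60.6 and 65.4 FPKM in A-LMSCs, 41.4 and 44.7 in PM-LMSCs and 54.9 and 86.4 in M-LMSCs. The order of stages was the same, with a difference of PM-LMSCs from A-LMSCs of -0.54 (SE 0.206, adjusted p = 0.703 in limma) and of M-LMSCs from PM-LMSCs of 0.67 (SE 0.206, adjusted p = 0.428). Without replicate 2 of M-LMSCs, the difference from PM-LMSCs was 0.40 for Scd2 and 0.34 for Scd1, and without replicate 1 it was 0.97 and 0.99. Scd1 and Scd2 share a stretch of 623 bases at 95.5% identity, and reads there may have been split between them.

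Fads2 did not follow Scd2. Its libraries were at 206 and 216 FPKM in A-LMSCs, 164 and 238 in PM-LMSCs and 137 and 221 in M-LMSCs, so that the PM-LMSC libraries lay on both sides of A-LMSCs. Fads1 stood at 119 and 127 FPKM in A-LMSCs, 89.9 and 115 in PM-LMSCs and 101 and 138 in M-LMSCs. Elovl6, the elongase of palmitate, was low, at 1.38 to 1.76 FPKM, and its 4 later libraries were below both A-LMSC libraries.

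**Figure D3:**
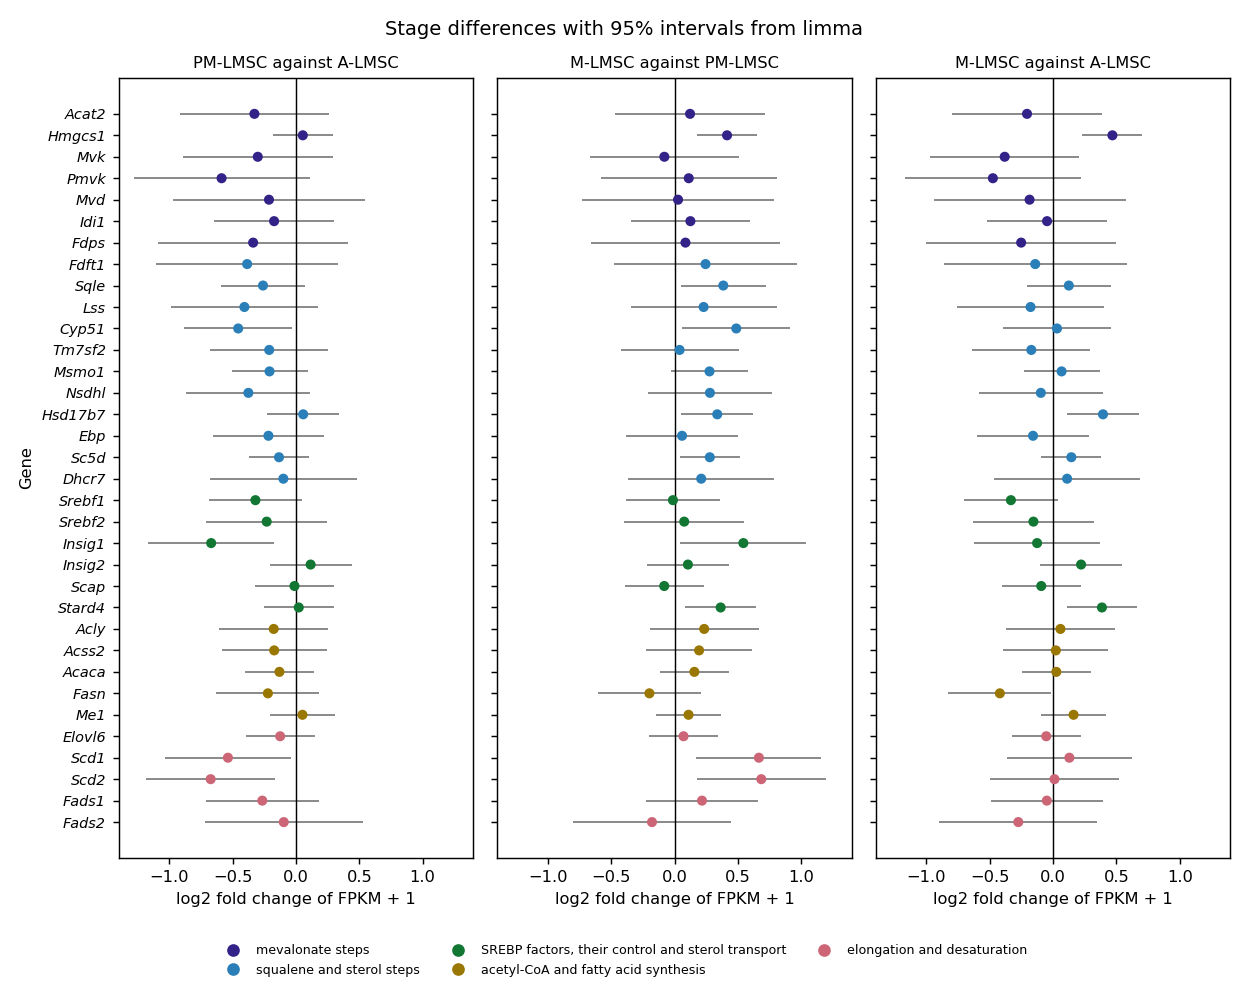
Stage differences of the 34 genes as log2 fold changes of FPKM + 1 (horizontal axes) with 95% intervals from limma, for PM-LMSCs against A-LMSCs, M-LMSCs against PM-LMSCs and M-LMSCs against A-LMSCs, with points colored by role. The points lie mostly left of 0 in the first panel and right of 0 in the second, and 28, 31 and 32 of the 34 intervals lie within 1 of 0.

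Ratios within a library set pairs of genes against each other without the scaling between libraries. Scd2 to Scd1 stayed between 2.81 and 3.41 in all 6 libraries. Srebf2 to Srebf1 was between 3.24 and 3.91. Insig1 to Insig2 was 11.4 and 14.6 in A-LMSCs, 6.30 and 8.37 in PM-LMSCs and 7.19 and 13.3 in M-LMSCs, so that both PM-LMSC ratios were below both A-LMSC ratios. Hmgcs1 to Fdft1 was 0.596 and 0.549 in A-LMSCs, 0.942 and 0.649 in PM-LMSCs and 1.21 and 0.647 in M-LMSCs. All 4 later libraries were above both A-LMSC libraries, and within each later stage the ratio was higher in replicate 1. GC content is 43.1% for Hmgcs1 and 51.8% for Fdft1, and the ratios were not corrected for the trends with GC content described below. Fasn to Acaca was 14.8 and 14.5 in A-LMSCs, 12.5 and 15.7 in PM-LMSCs and 9.64 and 11.8 in M-LMSCs. These ratios were described and not tested.

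**Figure D4:**
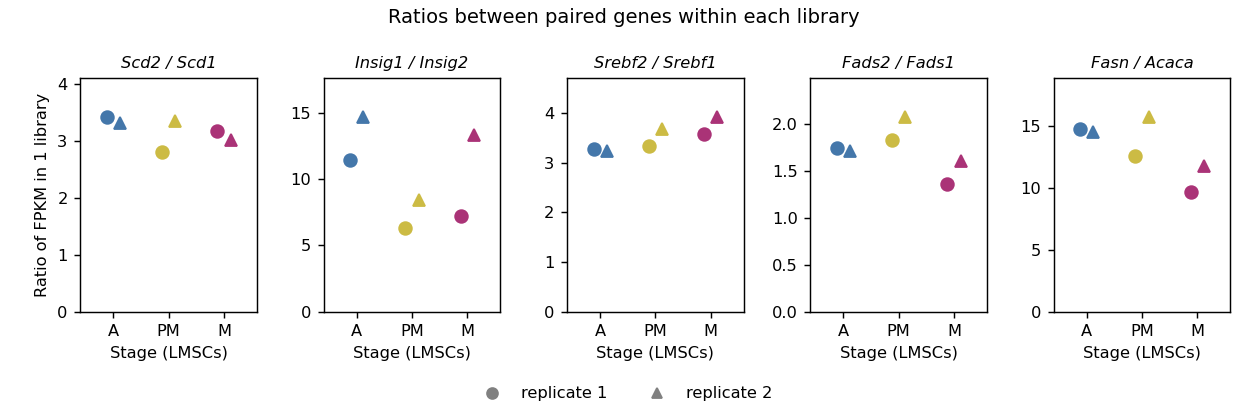
Ratio of the FPKM of 2 genes in the same library (vertical axes from 0) at the A, PM and M stages of LMSCs, with circles for replicate 1 and triangles for replicate 2. The ratio of Insig1 to Insig2 is lowest in replicate 1 of PM-LMSCs, at 6.30, while that of Scd2 to Scd1 varies only from 2.81 to 3.41.

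Libraries of replicate number 2 stood above those of number 1 for most of these genes. Replicate 2 was above replicate 1 for 27 of 34 genes in A-LMSCs, 28 in PM-LMSCs and 30 in M-LMSCs, where 47.3%, 45.3% and 51.1% of all genes were. The median gap was 0.06 in A-LMSCs, 0.27 in PM-LMSCs and 0.46 in M-LMSCs on the log2 scale. The number of genes below both A-LMSC libraries was 28 in replicate 1 of PM-LMSCs, 20 in replicate 2 of PM-LMSCs, 27 in replicate 1 of M-LMSCs and 3 in replicate 2 of M-LMSCs, where 36.9%, 38.4%, 40.3% and 37.6% of all genes were. Replicate 2 of M-LMSCs was instead above both A-LMSC libraries for 25 genes, as were 40.2% of all genes. The direction of M-LMSCs against A-LMSCs turned with the library left out, and that of PM-LMSCs against A-LMSCs did not. Without replicate 1 of PM-LMSCs, 25 of 34 genes were lower in PM-LMSCs, with a median of -0.09, and without replicate 2, 29 were lower, with a median of -0.36. Against PM-LMSCs, 33 of 34 were higher in M-LMSCs without M-LMSC replicate 1, at a median of 0.39. Within a replicate number, M-LMSCs were lower than A-LMSCs for 28 of 34 genes in number 1 and 8 in number 2. Against A-LMSCs, 28 of 34 were higher without M-LMSC replicate 1, at a median of 0.15, and 28 were lower without M-LMSC replicate 2, at -0.26. Without PM-LMSC replicate 1, 20 of 34 were higher in M-LMSCs than in PM-LMSCs, at 0.05.

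GC content moved with the replicate number and with the stage over all genes. The difference of replicate 2 from replicate 1 had a Spearman correlation with GC content of 0.58 in PM-LMSCs, 0.50 in M-LMSCs and 0.18 in A-LMSCs across 10257 genes, which are not independent replicates. Over the same genes, the correlation of GC content with the difference from A-LMSCs was -0.29 for PM-LMSCs and -0.39 for M-LMSCs. The median GC content was 49.3% for the 34 genes and 50.3% for all genes with a value. After the trends with GC content and length were removed from each library, replicate 2 was above replicate 1 for 29, 34 and 33 of the 34 genes in A-LMSCs, PM-LMSCs and M-LMSCs, with median gaps of 0.08, 0.27 and 0.49. The stage medians after this correction were -0.22 for PM-LMSCs against A-LMSCs, 0.17 for M-LMSCs against PM-LMSCs and -0.07 for M-LMSCs against A-LMSCs.

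Further genes of the pathways gave few calls. Of 9 other genes of sterol and isoprenoid synthesis, 0 were called in limma in any comparison, with or without the replicate block. Of 10 tested genes of SREBP processing and further targets, Lpin1, a phosphatidate phosphatase, rose in M-LMSCs against A-LMSCs with the block only (0.52, adjusted p = 0.0459 in limma, against 0.134 without it). Its levels were 2.08 and 1.80 FPKM in A-LMSCs, 2.06 and 1.96 in PM-LMSCs and 3.34 and 3.06 in M-LMSCs.

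Of 8 genes of cholesterol storage and lysosomal export, 5 had a higher mean in M-LMSCs than in A-LMSCs and 3 a lower one, and Lipa was the only one called, with the block. Scarb1, a lipoprotein receptor, lay at 6.63 and 7.11 FPKM in A-LMSCs, 5.68 and 7.22 in PM-LMSCs and 4.77 and 5.76 in M-LMSCs. Lipa, the lysosomal acid lipase that frees cholesterol from its esters, stood at 14.6 and 15.6 FPKM in A-LMSCs, 12.8 and 12.6 in PM-LMSCs and 26.0 and 25.1 in M-LMSCs. With the block it rose in M-LMSCs against A-LMSCs (0.72, adjusted p = 0.0208 in limma, 0.0840 without the block) and against PM-LMSCs (0.96, adjusted p = 0.0317, 0.0857 without it). Of 7 tested LXR factors and targets, which respond to oxysterols, 2 were called higher in M-LMSCs against A-LMSCs with the block and 0 without it. Apoe, an apolipoprotein, stood at 6.36 and 4.81 FPKM in A-LMSCs, 9.31 and 7.79 in PM-LMSCs and 19.0 and 12.1 in M-LMSCs (1.31, adjusted p = 0.0128 with the block, 0.0981 without it in limma). Smpdl3a stood at 4.62 and 6.15 FPKM in A-LMSCs, 7.04 and 5.79 in PM-LMSCs and 10.4 and 12.1 in M-LMSCs (0.95, adjusted p = 0.0274 with the block, 0.0998 without it in limma). Of 11 tested genes of fatty acid activation and further elongation, 0 were called in limma with or without the block.

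Markers of cell types were set beside these results. All 12 stromal markers passed the filter on low values, and their summed level was 2578 and 2507 FPKM in A-LMSCs, 2109 and 2437 in PM-LMSCs and 2326 and 3254 in M-LMSCs, with Col1a1 the largest. In PM-LMSCs against A-LMSCs, 8 of the 12 had a lower mean and 4 a higher one, and 0 were called with or without the block (4 at an unadjusted p under 0.05 in limma). Of these, Pdgfra stood at 9.11 and 9.67 FPKM in A-LMSCs, 6.31 and 6.69 in PM-LMSCs and 8.60 and 9.50 in M-LMSCs, so that its PM-LMSC libraries were the lowest of the 6. Those of Thy1 were instead the highest, at 24.03 and 20.0 FPKM in A-LMSCs, 29.8 and 35.3 in PM-LMSCs and 26.9 and 25.8 in M-LMSCs. Of 12 haematopoietic markers 7 were tested, all 7 with a higher mean in M-LMSCs, and 6 were called there against A-LMSCs with the block (0 without it). Their summed level was 137 and 129 FPKM in A-LMSCs, 173 and 79.7 in PM-LMSCs and 412 and 300 in M-LMSCs, most of it Lyz2, while Ptprc stayed below 0.1 FPKM. Of 8 mesothelial markers, 7 were tested and summed to 124 and 182 FPKM in A-LMSCs, 303 and 420 in PM-LMSCs and 205 and 501 in M-LMSCs, and 5 were called higher and 1 lower in M-LMSCs against A-LMSCs with the block. The lower one, Krt19, was the 1 called without it (-1.53, adjusted p = 0.0395 in limma). The 12 epithelial markers summed to 3.74 and 7.07 FPKM in A-LMSCs, 10.8 and 18.8 in PM-LMSCs and 11.5 and 24.8 in M-LMSCs, with Krt8 and Krt18 alone past the filter and called higher at both later stages with the block. The 10 adipocyte and lipid droplet markers summed to 49.3 to 57.1 FPKM, mostly Plin2, with Adipoq, Plin1, Cidec and Lep at or near 0. The 8 endothelial markers summed to 1.74 to 3.01 FPKM, and 1 of them, Kdr, was called higher in M-LMSCs against A-LMSCs with the block. The 10 cell division markers all had lower means at both later stages and summed to 120 and 130 FPKM in A-LMSCs, 96.2 and 97.7 in PM-LMSCs and 61.5 and 81.001 in M-LMSCs, with 6 called lower in M-LMSCs against A-LMSCs with the block. The part of these markers in the levels of the lipid genes was not tested.

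Depth and overlap limit these values. The spacing of low values gave an estimated depth of 14750000 to 20850000 fragments per library. The median standard error of a log2 difference between 2 stages was 0.185 over the 34 genes. Of the 34 genes, 11 have a near-identical copy elsewhere (at least 95% identity over 200 bases), 4 share exon sequence with a gene of the same strand and 10 with a gene of the opposite strand, so that reads may have been split or shared, and 16 have none of these.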

How the data were processed

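RNA of 6 LMSC libraries, 2 of each stage, was sequenced on an Illumina platform. The authors deposited 1 table of FPKM values for 34745 genes. The submitters' processing notes name TopHat2 2.0.9 and mm10. The counting program, the annotation and the use of strand are not given in the sources used here. The study describes 3 mice a stage, and a library beyond the 2 a stage was not analysed here. The 34 genes, their roles, the other gene lists and the tests were chosen with earlier results of these data known.

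FPKM values were tested as log2(FPKM + 1) with limma 3.58.1 (R 4.3.3; moderated statistics with a mean trend), over the 10279 genes whose mean over all libraries reached 1 FPKM. All 6 libraries entered 1 fit with the stage as factor, and contrasts were PM-LMSCs against A-LMSCs, M-LMSCs against A-LMSCs, M-LMSCs against PM-LMSCs, and both later stages against A-LMSCs. P-values are two-sided, and were adjusted by the method of Benjamini and Hochberg over all genes tested, with 0.05 as the threshold. Every one of the 34 genes is reported. From other lists, genes called in any comparison with or without the replicate block were named, and up to 4 a list with the lowest p of both later stages against A-LMSCs. Other names are defining markers. Some genes that this rule covers are not reported here.

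The main fit left the libraries unpaired. Deviations from the stage means correlated between same-numbered libraries over 10279 genes (0.238 for A and PM, 0.307 for A and M, 0.491 for PM and M). The labels do not say what the numbers share. A fit with the number as a block was therefore an alternative, beside a pseudocount of 0.1, no filter, quantile normalization, median centering, fits of the compared libraries alone, a minimum log2 change of 1 and leaving out each library. Removal of the trends with GC content and exon length (lowess, span 0.3, 10257 genes), with and without the block, was added after the data were seen.

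Depth was estimated from the spacing of low FPKM values of genes with a single transcript, at 14750000 to 20850000 fragments. Over all genes only 54.7% to 57.2% of low values came out whole, within 0.1 fragment, so no count test was run. Gene positions are from GENCODE M21 on GRCm38, which holds 34344 of the identifiers, and 57 repeated gene names were taken at their first identifier. Promoter windows are from RefSeq. Near-identical copies were found with blastn 2.17.0. The scripts were tested on simulated data and used Python 3.11.15, numpy 2.4.6, pandas 2.3.3, scipy 1.17.1 and matplotlib 3.10.9.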

Additional observations from a re-analysis of the deposited data

Results flagged for a closer look

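Sc5d was the only gene of the set whose later stages lay on opposite sides of A-LMSCs in every library. Its PM-LMSC libraries were both below the A-LMSC pair (-0.13 on the log2 scale) and its M-LMSC libraries both above it (0.14). After the GC content and length correction these differences were -0.23 and 0.01, so that M-LMSCs were then nearly level with A-LMSCs. The test of the difference between M-LMSCs and PM-LMSCs gave 0.28 (SE 0.098, unadjusted p = 0.0273, adjusted p = 0.485 in limma), which was not called.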

How the results depend on the processing

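The number of called members was 0 in every comparison and alternative, except that the replicate block gave 1 (Hmgcs1, M-LMSCs against A-LMSCs), which the GC content and length correction with the block did not call. The block changed no other member's call. The pairing by replicate number moved the counts over all genes most, from 4 to 30 in PM-LMSCs against A-LMSCs, 7 to 403 in M-LMSCs against A-LMSCs, 3 to 43 in M-LMSCs against PM-LMSCs and 13 to 211 in both later stages against A-LMSCs. With the correction and the block, the last 3 were 305, 6 and 68, and with the correction alone M-LMSCs against A-LMSCs gave 17. Without the filter the counts were 1, 3 and 0 for PM-LMSCs, M-LMSCs and both later stages against A-LMSCs. Fits of the compared libraries alone gave 21 and 1 for PM-LMSCs and M-LMSCs against A-LMSCs, and median centering gave 7 for both later stages. The cause of these shifts was not tested.

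Leaving out 1 library, called genes ranged from 1 to 2 in PM-LMSCs against A-LMSCs, from 2 to 90 in M-LMSCs against A-LMSCs, from 2 to 25 in M-LMSCs against PM-LMSCs and from 0 to 93 in both later stages against A-LMSCs. The high counts came without replicate 2 of M-LMSCs (90 and 25) and without replicate 1 (93). The median of the 34 genes ranged from -0.36 to -0.09, from -0.26 to 0.15, from -0.0084 to 0.39 and from -0.31 to -0.05, in the same order. Replicate 2 of M-LMSCs gave -0.26 and -0.0084 when left out, and replicate 1 gave 0.15 and 0.39. With 1 library left at a stage, that library was assumed to vary like the others. For the 19 single-gene differences with an unadjusted p under 0.05, every alternative value kept its direction, but the sizes moved, as for Scd1 (0.34 to 0.99) and Insig1 (0.25 to 0.84) in M-LMSCs against PM-LMSCs when 1 library was left out. Over all 34 genes, the sign held under every alternative for 26 in PM-LMSCs against A-LMSCs, 11 in M-LMSCs against A-LMSCs and 13 in M-LMSCs against PM-LMSCs.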
